A study of Mus musculus with 4 samples.

Results

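Translation initiation factor genes were followed in RNA of samples labelled as pro-B cells, early bone marrow precursors that are still assembling an immunoglobulin heavy chain. Members were the probe sets whose only gene symbol in the platform annotation starts with Eif, leaving out Eif2s3y and pseudogene symbols. This gave 57 of 34760 probe sets, or 57 of the 21640 that carry 1 gene symbol, and they stand for 48 of 19937 genes measured in this way. Another 9 probe sets list an Eif symbol together with other symbols and were not used. RNA came from B220+ c-Kit+ cells sorted from the bone marrow of C57BL/6 mice, genotype wild type with no treatment named, and was hybridized to 4 Affymetrix Mouse Gene 1.0 ST arrays, replicates 1 to 4 of a single group. The sources used here give neither the age of the mice nor whether each replicate was a separate mouse. The sort was by flow cytometry or magnetic beads, and which of them served these samples is likewise not stated. No groups could be compared, so all values below are descriptions of 4 arrays, whose number limits the precision.

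Initiation is the step at which a ribosome is brought to an mRNA and placed on its start codon. The factor eIF2 carries the initiator tRNA to the small ribosomal subunit together with eIF1, eIF1A, eIF3 and eIF5. The complex eIF4F, made of the cap-binding protein eIF4E, the scaffold eIF4G and the helicase eIF4A, recruits the mRNA. The pathway is held back by phosphorylation of eIF2, which blocks its exchange factor eIF2B, and by 4E-binding proteins, which sequester eIF4E until mTOR phosphorylates them.

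The deposited values are log2 intensities that span 2.27 to 14.6, and any pair of arrays correlated at a Pearson's r of 0.990 to 0.994 across single-symbol probe sets, which are not independent of each other. The background line was set on each array at the 95th percentile of 1246 smell, pheromone and taste receptor probe sets, at log2 values of 6.53 to 6.62, and a probe set had to exceed it on every array to count as above background. All 13 early B-cell markers with a probe set of their own passed this line, Kit, Ptprc and Pax5 among them. So did all 9 erythroid and all 12 granulocyte and monocyte markers. The 6 pre-B and immature B, 4 megakaryocyte and 5 T and NK markers with a probe set passed it too. Many markers of other lineages were far above the line. Mean log2 values ran from 7.29 to 12.64 for the early B-cell markers and from 7.77 to 13.74 for the erythroid markers. For the granulocyte and monocyte markers they ran from 10.01 to 13.82, so the values are those of mixed RNA. Among the T and NK markers Cd8a, Cd4 and Cd3g were near the line, with minimum margins of 0.21 to 0.26. The part of all such cells in the results below was not tested. In bulk RNA, fewer cells of a type and less RNA per cell cannot be told apart. Replicate 3 differed in sex-linked RNA, with Xist at a log2 value of 5.48 there against 13.04 to 13.17 on the other arrays.

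Of the 57 initiation factor probe sets, 56 were above background on every array, against 63.5% of all single-symbol probe sets. They cover 47 of the 48 genes. The exception was Eif4a3l1, a gene closely related to the helicase gene Eif4a3, with log2 values of 5.42, 5.28, 5.27 and 5.36 on the arrays of replicates 1 to 4, all below the line. The 56 probe sets had means of 7.06 to 13.71. Levels were not compared between genes, since probe sets differ in how they respond. Closest to the line, with minimum margins of 0.42 to 0.51, were 1 of the 3 Eif4e probe sets and both probe sets of Eif4e1b, the gene of an eIF4E relative known from oocytes.

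**Figure D1:**
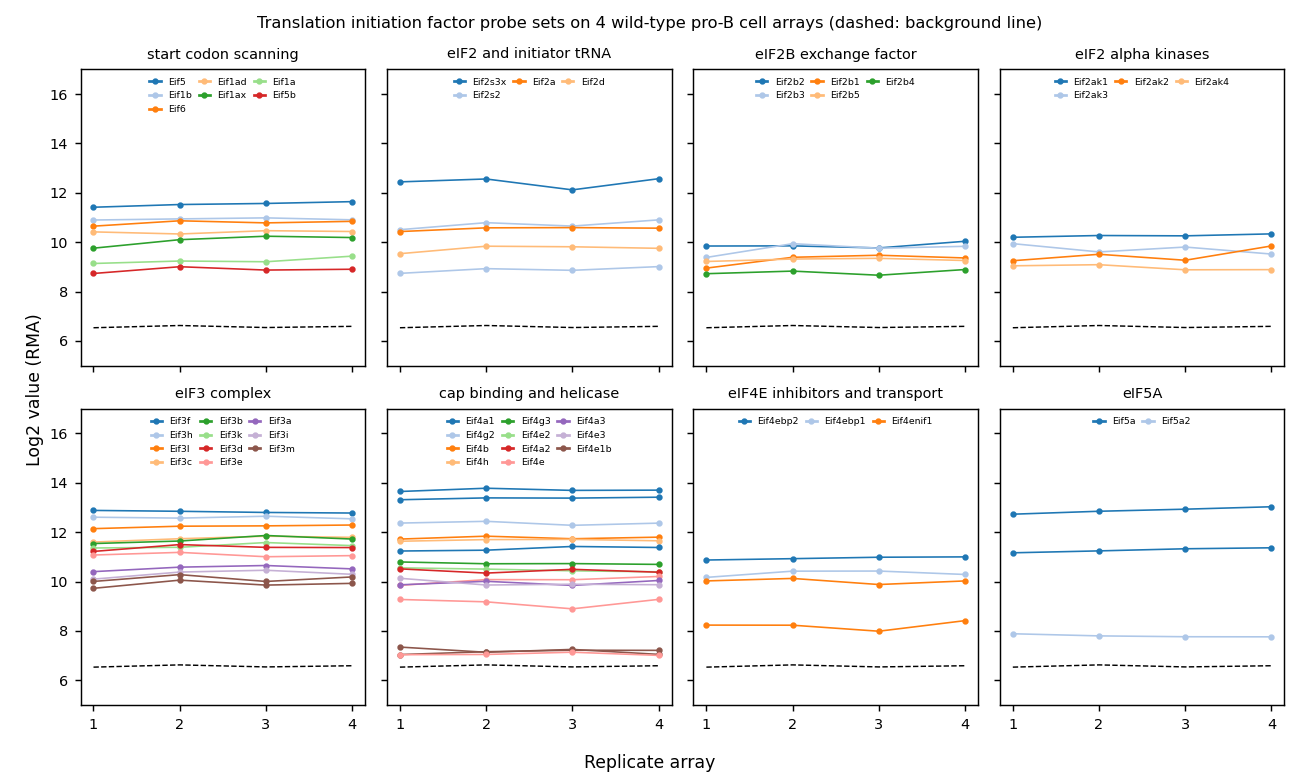
Log2 values (vertical axis) of initiation factor probe sets on the arrays of replicates 1 to 4 (horizontal axis), in 8 groups by role; lines join the values of 1 probe set, probe sets of a gene share a colour, and the dashed line is the background line. All probe sets drawn lie above the line, at means of 7.06 to 13.71; Eif4a3l1, at a mean of 5.33, belongs to none of the groups and is not drawn.

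By median SD, initiation factor transcripts differed between the arrays slightly less than other transcripts did, and a smaller share of them had a wide range. Their SD over the 4 arrays had a median of 0.10 on the log2 scale, against 0.11 for all single-symbol probe sets above the line, and ran from 0.037 for Eif4h, a cofactor of the eIF4A helicase, to 0.28 for Eif2ak2. A range of at least 0.5 between the highest and the lowest array was found in 3 of 56 probe sets (5.36%), against 11.9% of all probe sets above the line. These were Eif2ak2, Eif2b1 and Eif2b3. Without replicate 1 the count was 1, Eif2ak2. Among the cell-type marker lists in the same RNA, the median SD was 0.15 for T and NK cells, 0.28 for granulocytes and monocytes, 0.37 for megakaryocytes, 0.42 for pre-B and immature B cells, 0.52 for early B cells and 0.71 for erythroid cells.

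**Figure D2:**
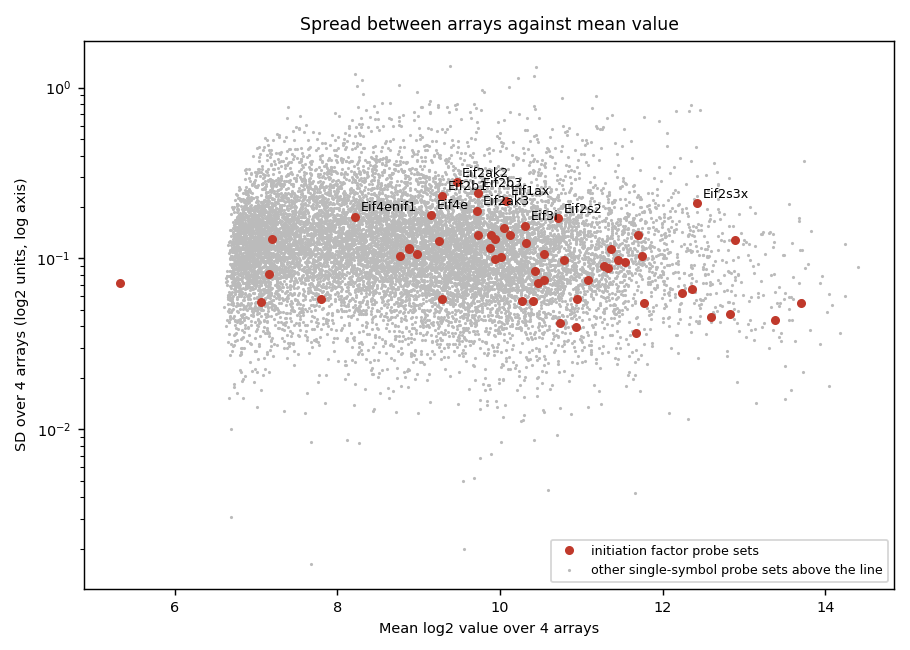
SD over the 4 arrays (vertical axis, log2 units on a log axis) against the mean log2 value (horizontal axis), for the 57 initiation factor probe sets in red and for the other single-symbol probe sets above the background line in grey. The 10 with the largest SD are named, from 0.28 for Eif2ak2 to 0.16 for Eif3i, and lie within the grey cloud.

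The array of replicate 1 stood lowest for most members. There 40 of 56 probe sets (71.4%) were below the mean of the other arrays, against 47.9% of all probe sets above the line, and 34 of 56 gave their lowest value of all, against 28.9%. The median shift, that is, the value on an array minus the mean of the others, was -0.10 on the log2 scale for the members and 0.01 for all probe sets. This corresponds to 0.934 of the level on the other arrays and is about the size of the median SD. Taken 1 array at a time, 44 of 56 members were lower on replicate 1 than on replicate 2, 37 lower than on replicate 3 and 42 lower than on replicate 4. Of all probe sets above the line, 47.8%, 49.1% and 46.8% were lower in the same 3 comparisons. On the arrays of replicates 2, 3 and 4 the median shifts were 0.04, 0.03 and 0.04, and without replicate 1 they were 0.0020, -0.01 and 0.0003. Cell-type markers moved on the same array. All 9 of 9 erythroid markers were lower, by a median shift of -1.31, and their summed log2 value was 76.9 on replicate 1, against 89.2 to 91.1 on the other arrays. Of the early B-cell markers 12 of 13 were higher, by a median shift of 0.76, with a summed log2 value of 144.0 against 131.3 to 138.0. The exception was Kit, a marker used in the sort, with a shift of -0.36. All 6 pre-B and immature B markers were higher as well (median shift 0.65), and all 5 T and NK markers were lower (-0.28). Of the granulocyte and monocyte markers 7 of 12 were lower (-0.02), and of the megakaryocyte markers 3 of 4 were higher (0.31). The part of these cells in the members' shift was not tested.

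**Figure D3:**
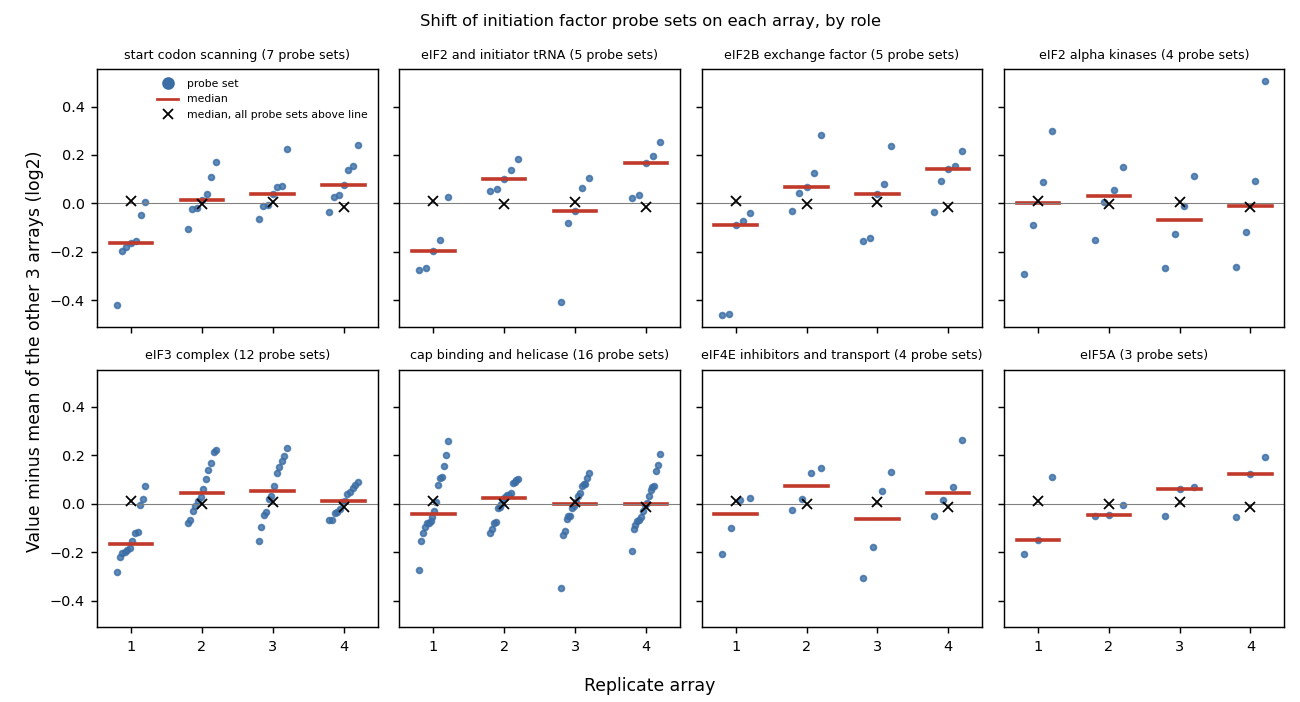
Value on 1 array minus the mean of the other 3 arrays (vertical axis, log2) for each replicate array (horizontal axis), in 8 groups of initiation factor probe sets above the line. Points are probe sets, red bars their medians and crosses the median over all probe sets above the line; on replicate 1 the bars of the eIF2, start codon scanning and eIF3 groups lie at -0.20, -0.16 and -0.17 and that of the eIF2 alpha kinases at 0.00.

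Factors that place the ribosome on the start codon were measured by 7 probe sets of 7 genes, of which 6 were lower on the array of replicate 1 (median shift -0.16). Eif1ax, an X-linked gene for eIF1A, the factor that keeps the scanning ribosome open, varied the most. Its log2 values were 9.76, 10.10, 10.24 and 10.19 on the arrays of replicates 1 to 4. Replicate 1 was the low array, by 0.42 from the mean of the others. The autosomal Eif1a gene had log2 values of 9.14, 9.24, 9.21 and 9.43, with replicate 4 the highest. RNA of near-identical copies can cross-hybridize, and the annotation lists further probe sets on which Eif1a stands beside several other symbols. Eif1b, a paralogue of the start codon selection factor Eif1, was steady at 10.90, 10.94, 10.98 and 10.90 (SD 0.04, n = 4). Eif5, the GTPase-activating protein of eIF2, Eif5b, the GTPase of subunit joining, and Eif6, which keeps the large subunit from joining early, each had their lowest value on replicate 1, with shifts of -0.16, -0.19 and -0.18. Eif1 itself was not analysed here.

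The eIF2 group, which delivers the initiator tRNA, had 5 probe sets of 4 genes. Both probe sets of Eif2s2, the beta subunit, ordered the arrays alike. The brighter had log2 values of 10.51, 10.79, 10.65 and 10.90 on the arrays of replicates 1 to 4, and the dimmer had 8.74, 8.93, 8.86 and 9.01. Each was lowest on replicate 1 and highest on replicate 4. Eif2a, an initiator tRNA-binding protein distinct from eIF2, had 10.43 on replicate 1 against 10.57 to 10.59 on the other arrays. Its spread was small (SD 0.08, n = 4), yet replicate 1 lay apart from the rest. Eif2d, a further tRNA-delivering factor, had 9.53 on replicate 1 against 9.75 to 9.84. The alpha subunit gene, Eif2s1, was not analysed here.

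Eif2s3x, the X-linked gene of the eIF2 gamma subunit, behaved otherwise. Its log2 values were 12.44, 12.56, 12.12 and 12.57 on the arrays of replicates 1 to 4. Replicate 3 was the low array, 0.41 below the mean of the others, and it is the array on which Xist was at 5.48. On the same array the Y-linked partner gene Eif2s3y, left out of the members by the rule, had a log2 value of 10.05, against 4.62 to 5.17 on the other arrays. In mice Eif2s3x is known to escape X inactivation. Eif1ax, the other X-linked member, was not low on replicate 3, where it had its highest value. A single array carries this pattern, so no test was made.

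The exchange factor eIF2B, which reloads eIF2 with GTP, was complete, with 5 genes and 5 probe sets above background. All 5 were below the mean of the others on replicate 1, by a median of 0.09 and unequally. Eif2b1, the alpha subunit, had log2 values of 8.95, 9.39, 9.47 and 9.36 on the arrays of replicates 1 to 4. Eif2b3, the gamma subunit, had 9.38, 9.94, 9.75 and 9.83. Replicate 1 was the lowest array for each, 0.46 below the mean of the others. Eif2b2, Eif2b4 and Eif2b5, the beta, delta and epsilon subunits, had shifts on replicate 1 of -0.04, -0.07 and -0.09. For Eif2b2 and Eif2b4 the lowest array was that of replicate 3.

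The 4 kinases that phosphorylate eIF2 alpha did not move together. Eif2ak2, the double-stranded RNA-activated kinase PKR and an interferon-induced gene, had log2 values of 9.25, 9.51, 9.27 and 9.85 on the arrays of replicates 1 to 4, the widest range of all members (0.60). Replicate 4 was the highest, by 0.51 over the mean of the others. All 5 of the measured interferon-stimulated genes were above the mean of the others on that array too, against 45.9% of all probe sets above the line. Their median shift was 0.31 and their summed log2 value 43.0, against 41.3 to 41.9 on the other arrays. Ifit1, Oas1a and Irf7 were highest on replicate 4. Mx1 and Ifit3 were highest on replicate 3, at 8.37 and 8.57, against 8.32 and 8.49 on replicate 4. The part of these genes in the Eif2ak2 value was not tested. Eif2ak3, the kinase PERK of the endoplasmic reticulum stress response, ran differently, with 9.94, 9.60, 9.80 and 9.52, highest on replicate 1 and lowest on replicate 4. Eif2ak1, the haem-regulated kinase known from erythroid cells, had 10.20, 10.27, 10.26 and 10.33. Its SD was 0.06, and its shift on replicate 1 was -0.09 where the erythroid markers had -1.31. Eif2ak4, the amino acid-sensing kinase GCN2, had 9.04, 9.09, 8.88 and 8.89.

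**Figure D4:**
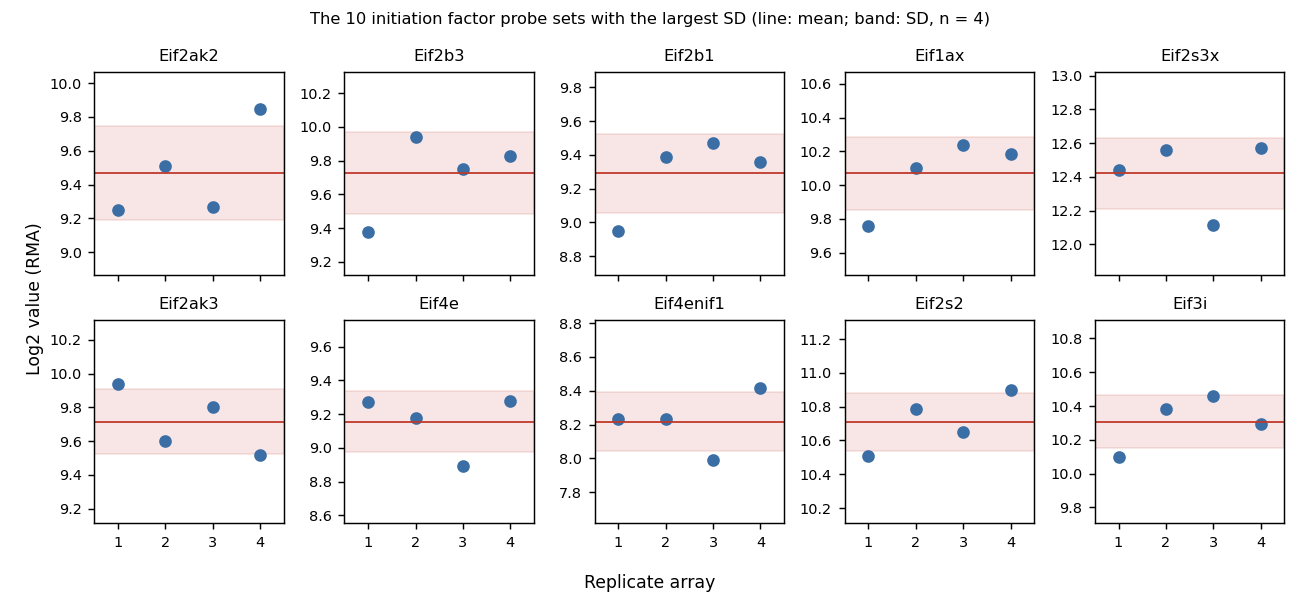
Log2 values (vertical axis, 1.2 units high in each panel) on the arrays of replicates 1 to 4 (horizontal axis) for the 10 initiation factor probe sets with the largest SD. Points are arrays, lines means and bands 1 SD on each side (n = 4); Eif2b1, Eif2b3, Eif1ax, Eif2s2 and Eif3i are lowest on replicate 1, Eif2s3x, Eif4e (the probe set with a mean of 9.16) and Eif4enif1 (that with a mean of 8.22) on replicate 3, and Eif2ak2 is highest on replicate 4.

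The eIF3 complex, the largest of the factors and the platform that links the small subunit to the mRNA, was represented by 12 probe sets of 11 genes, all above background. Their SDs were 0.05 to 0.16. Replicate 1 was below the mean of the others for 10 of 12, with a median shift of -0.17. Eif3a, the large scaffold subunit, had log2 values of 10.40, 10.58, 10.65 and 10.51 on the arrays of replicates 1 to 4. Eif3i, a subunit of the core bound to Eif3b and Eif3g, had 10.10, 10.38, 10.46 and 10.29, the widest spread of the complex. The lowest array was replicate 1 for both. The subunits that did not follow were Eif3f and Eif3h, which form a pair in the complex, with shifts on replicate 1 of 0.07 and 0.02. They were also the steadiest, at means of 12.82 ± 0.05 for Eif3f and 12.59 ± 0.05 for Eif3h (SD, n = 4). Eif3e was lowest on replicate 3. Eif3g and the Eif3j genes were not analysed here as single-symbol probe sets.

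The cap-binding and helicase group held 16 probe sets of 11 genes, and 9 of the 16 were lower on replicate 1, with a median shift of -0.04. By the brightest probe set of each gene 5 of 11 were lower and the median shift was 0.01, so the sign depends on the probe sets taken. The brightest of the 3 probe sets of Eif4a1 had log2 values of 13.65, 13.78, 13.69 and 13.70 on the arrays of replicates 1 to 4. Its other probe sets had 13.31, 13.39, 13.38 and 13.42, and 11.24, 11.27, 11.42 and 11.38. Replicate 1 was the lowest array for all 3, with SDs of 0.05, 0.04 and 0.09. The paralogue Eif4a2 had 10.51, 10.34, 10.49 and 10.38, highest on replicate 1. Eif4a3, the helicase of the exon junction complex, had 9.87, 10.01, 9.84 and 10.04 (SD 0.10, n = 4), close to the median SD of the members. The eIF4G family genes Eif4g2 and Eif4g3 were at 12.36 ± 0.07 and 10.73 ± 0.04 (SD, n = 4), and Eif4b, which stimulates the helicase, at 11.77 ± 0.06. Eif4g1 was not analysed here.

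The probe sets of the cap-binding protein gene Eif4e disagreed with each other. The brightest had log2 values of 9.84, 10.08, 10.07 and 10.21 on the arrays of replicates 1 to 4, lowest on replicate 1. The next had 9.27, 9.18, 8.89 and 9.28, lowest on replicate 3. The dimmest had 7.04, 7.05, 7.14 and 7.01, near the line. No single direction can be given for this gene. Among its relatives, Eif4e2, which competes for the cap as a repressor, had 10.55, 10.50, 10.43 and 10.39, highest on replicate 1. Eif4e3 had 10.13 on replicate 1 against 9.86, 9.89 and 9.87 on the arrays of replicates 2 to 4, so replicate 1 stood apart on the high side. The probe sets of Eif4e1b had 7.34, 7.13, 7.25 and 7.05, and 7.04, 7.16, 7.22 and 7.21, and gave opposite shifts on replicate 1, 0.20 and -0.15.

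Both measured 4E-binding protein genes, whose products block the binding of eIF4E to eIF4G, were above background. Eif4ebp1 had log2 values of 10.17, 10.42, 10.42 and 10.29 on the arrays of replicates 1 to 4, lowest on replicate 1. Eif4ebp2 was steadier, with 10.87, 10.93, 10.98 and 11.00 (SD 0.06, n = 4), and was also lowest on replicate 1. Eif4enif1, the gene of the eIF4E transporter, was lowest on replicate 3 by both of its probe sets, at 9.88 and 7.99. Of the genes of eIF5A, a hypusine-bearing factor that also helps ribosomes through elongation and termination, Eif5a gave the same order of arrays by both probe sets. They had 12.73, 12.85, 12.93 and 13.03, and 11.16, 11.24, 11.33 and 11.37, lowest on replicate 1 and highest on replicate 4. Its paralogue Eif5a2 had 7.88, 7.80, 7.76 and 7.76, highest on replicate 1.

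For genes with several probe sets, the small differences between arrays could be read more than once under the same symbol, though not always from the same locus. There were 7 such genes with 16 probe sets. The lowest array was the same for all probe sets of 4 genes and the highest for those of 3. Both agreed for Eif2s2 and Eif5a, and neither agreed for Eif4e and Eif4e1b. Probe sets of a gene can also pick up processed pseudogenes, so their agreement does not assign the signal to 1 locus. Probe set numbers here largely follow chromosome order. The brightest probe sets of Eif2s2, Eif4a1, Eif4e, Eif4e1b and Eif5a have numbers that fall among those of chromosomes other than the gene's own. Those of Eif3m and Eif4enif1 do not. Which locus each probe set reads was not tested.

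**Figure D5:**
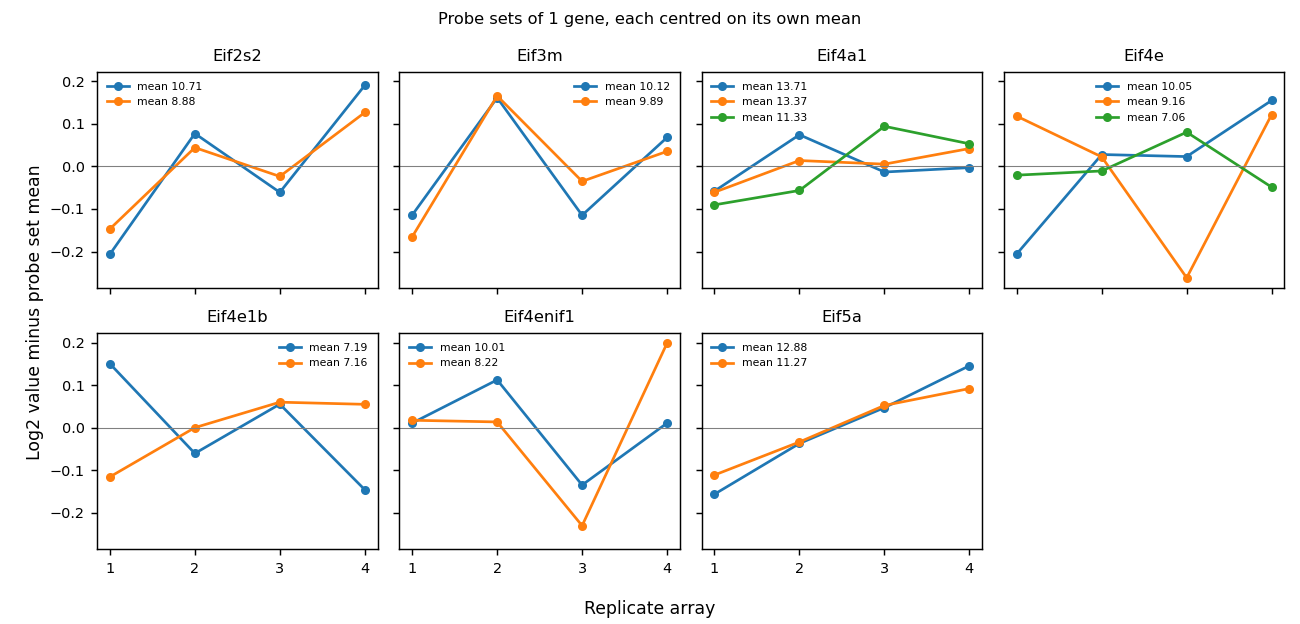
Log2 value minus the mean of the probe set (vertical axis) on the arrays of replicates 1 to 4 (horizontal axis), for the 7 initiation factor genes with several probe sets; each line is a probe set and the legend gives its mean log2 value. The lines of Eif2s2 and of Eif5a run in the same order, while those of Eif4e and Eif4e1b cross.

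Promoter windows from RefSeq, 250 bases before to 50 after the annotated start in build GRCm38.p6, were found for 38 of the 48 genes. Eif1a, Eif2b3, Eif3e, Eif3h, Eif3i, Eif4e1b, Eif4e3, Eif4ebp1, Eif4g2 and Eif6 have no entry. The E-box CACGTG, which reads the same on both strands and is known as a binding sequence of Myc with Max, occurred in the windows of 9 genes (23.7%). It occurred in those of 8.09% of all genes in the table and of 11.5% of the 10116 genes with a probe set above the line. The genes were Eif1b, Eif3a, Eif3f, Eif3k, Eif4a1, Eif4e, Eif4h, Eif5a and Eif5a2. The windows were not matched on base composition, and a match is not a binding site. Their 14 probe sets had a median SD of 0.07 and a median shift on replicate 1 of -0.08, against 0.11 and -0.10 for the 31 probe sets of genes whose windows hold no E-box. The sites of the cap-binding, helicase and eIF5A genes are shown with their flanks, 1 site per gene, because they include the steadiest member, Eif4h, and 1 of the 10 with the largest SD, Eif4e, and the E-box is in capitals.
Eif4e, chr3:138527192-138527221, plus strand: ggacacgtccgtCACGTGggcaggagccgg
Eif4h, chr5:134639488-134639517, minus strand: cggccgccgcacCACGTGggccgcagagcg
Eif4a1, chr11:69672595-69672624, minus strand: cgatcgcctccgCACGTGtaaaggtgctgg
Eif5a, chr11:69921443-69921472, minus strand: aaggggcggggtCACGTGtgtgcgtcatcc
Eif5a2, chr3:28781148-28781177, plus strand: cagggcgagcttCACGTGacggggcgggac

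The E-boxes printed for Eif4e, Eif4h and Eif4a1 begin 64, 96 and 189 bases before the annotated start, and Eif4e, Eif5a and Eif5a2 each hold a further one. A start of the kind found in mRNAs under mTOR control, a C followed by at least 4 bases that are each C or T, was met at the annotated start of 2 genes (5.26%), against 3.01% of all genes in the table and 2.99% of those with a probe set above the line. They were Eif3f, the steady eIF3 subunit gene, and Eif2s3x, the gene that was low on replicate 3. Both are shown from before the annotated start. Capitals mark the unbroken C and T bases counted from that start onwards, 11 in each, and further C and T bases lie directly before it in both.
Eif3f, chr7:108934405-108934427, plus strand: tctaggctctCTCTCTTTCTCgg
Eif2s3x, chrX:94212639-94212661, minus strand: gagcattttcCTTTTCTCTCCga

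Other genes of protein synthesis were read from lists by their brightest probe set. For comparison, 63.5% of all single-symbol probe sets were above background. Of those above it, 47.9% were lower on replicate 1 and 11.9% had a range of at least 0.5. Of the elongation and termination genes, 12 of 12 with a probe set were above background, and 8 of 12 were lower on replicate 1 (median shift -0.18). Over all 14 probe sets of these genes 9 were lower, with a median shift of -0.11. Etf1, the release factor that reads stop codons, had 10.29 on replicate 1 against 10.53 to 10.75 on the other arrays. Eef1a1 and Eef2, the main elongation factors, were steady at 14.08 ± 0.05 and 13.43 ± 0.03 (SD, n = 4). Gspt2, a partner of that release factor, had a range of at least 0.5 (0.55), and over all 14 probe sets 2 did, the larger range being 0.69. Of the further genes that act on initiation or bind mRNA, 14 of 14 were above background, 10 of 14 were lower on replicate 1 (median shift -0.10) and 0 had a range of at least 0.5. Over all 16 of their probe sets 12 were lower on replicate 1, and 0 had such a range. Among them Pdcd4, an inhibitor of eIF4A, had log2 values of 11.93, 11.90, 12.10 and 12.15 on the arrays of replicates 1 to 4.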

How the data were processed

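The authors deposited log2 intensities, 1 value per probe set and array; both the background step and the normalization were RMA, run in R/Bioconductor. The sources used here do not state which arrays were normalized together, the genome build, or how low expression was filtered. The table of 34760 probe sets was used whole, and 0 columns were left without a sample. Names came from the platform annotation (21640 probe sets with 1 symbol, 1321 with several, 11799 with none listed), and all 57 members matched RefSeq (GRCm38.p6) by gene identifier. Members, lists, the background line and the rules were chosen with earlier results of these data known. Values on each array are given for the first member of each role list, the 10 probe sets with the largest SD, those not above the line or within 0.3 of it, paralogue pairs and eIF4E relatives, Eif2s3x and genes with 1 array apart by Dixon's ratio (critical value 0.829). Others were named after their values were seen. Where nothing else is said, a gene stands for its brightest probe set, which for some genes may read another locus. With 1 group no test between groups was made. Alternatives were other lines, limma, one-sided, against the line over all probe sets (tested on simulated data), quantile normalization, cyclic loess, other range limits and leaving out each array. The work used limma 3.58.1 under R 4.3.3, and pandas 2.3.3, numpy 2.4.6 and matplotlib 3.10.9 under Python 3.11.15.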

Additional observations from a re-analysis of the deposited data

Results flagged for a closer look

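In 2 of the 57 initiation factor probe sets a single array lay far from the rest by Dixon's ratio, the gap to the nearest array over the whole range. Chance gives about 1 in 20, or 2.85 of 57, and 5.36% of all probe sets above the line met it. Eif4e3 had a ratio of 0.882, with replicate 1 at a log2 value of 10.13 and the other arrays at a mean of 9.87. Eif2a had a ratio of 0.859, with replicate 1 at 10.43 and the other arrays at a mean of 10.58.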

How the results depend on the processing

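No paired analysis was possible because there is a single group of arrays. The count of 56 probe sets above the line was 53 with the 99th percentile or the array median as the line, and 56 by the limma test (adjusted p under 0.05). It was 56 when each replicate was left out. The 3 probe sets with a range of at least 0.5 became 7 at a limit of 0.4 and 0 at 0.7, and 1 to 2 when each replicate was left out, the 1 without replicate 1. The median SD was then 0.07 to 0.10. The median shift on replicate 1 was -0.11 with quantile normalization and with cyclic loess, and -0.11 to -0.09 when each other replicate was left out, an alternative added after seeing the data. On replicate 3 the median shift turned to -0.013 without replicate 1, in a leave-one-out range of -0.013 to 0.040; the cause was not tested. Of 173 further values of named genes and lists under alternatives, 172 moved by less than 1 SD over the arrays or, for counts, by less than 1.5 times. For a shift with an array left out this was fixed in advance, since leaving out 1 array cannot move it by that much. Among the 172, the Eif5a2 shift on replicate 1, 0.11, was 0.06 with quantile normalization and 0.07 with cyclic loess. Gspt2 fell below the 99th percentile line, so the elongation list then had 0 genes with a range of at least 0.5. Signal over background limits the dimmest members, the 2 Eif4e1b probe sets and 1 of Eif4e.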

Other observations

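Genes that signal to the initiation machinery were mostly above background too. The counts below stand beside 63.5% of all single-symbol probe sets above background. Of those above it, 47.9% were lower on replicate 1 and 11.9% had a range of at least 0.5. Of the mTOR signalling genes, 11 of 11 with a probe set passed the line, and 6 of 11 were lower on replicate 1 by their brightest probe set (median shift -0.02). On replicate 4, 9 of 11 were lower by that probe set (median shift -0.08) and 10 of 17 over all probe sets of the list (median shift -0.02), against 54.1% of all probe sets above the line. Mtor, the kinase itself, had log2 values of 9.82, 9.73, 9.57 and 9.52 on the arrays of replicates 1 to 4. Ddit4, an inhibitor of mTOR induced by stress, had 8.22 on replicate 1 against 7.56 to 7.80 on the other arrays. A range of at least 0.5 was found in 1 of 11 genes by the brightest probe set, which was Ddit4 (0.67), and in 3 of 17 probe sets, with a largest range of 0.87.

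Of the integrated stress response genes, which act downstream of the eIF2 alpha kinases, 11 of 12 passed the line, all but Vldlr. By the brightest probe set 6 of 11 were lower on replicate 1 (median shift -0.03). Over all 12 probe sets of the list above the line 6 were lower, with a median shift of 0.002. Asns, the asparagine synthetase gene and a target of Atf4, had a log2 value of 10.68 on replicate 1 against 11.90, 11.68 and 11.86 on the arrays of replicates 2 to 4, a shift of -1.14. Atf4 itself had 8.64, 8.70, 8.73 and 8.58, and Ddit3 had 8.24, 8.27, 8.46 and 8.08. Cebpb had 9.18 on replicate 1 against 8.41 to 8.63 on the other arrays. Asns and Cebpb were the 2 genes of this list with a range of at least 0.5, and they moved in opposite directions on replicate 1. Cell-type markers differed on this array as well, and their part in these values was not tested.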
